A study of Mus musculus with 12 samples.

Results

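Grin3a, Kcnd2, Kcns2, Cnr1, Gpr85 and Nkain3, genes of neuronal excitability, were followed in mouse brain sections kept in artificial cerebrospinal fluid (aCSF) with or without L-fucose. They are 6 of the 56923 rows of the deposited table. They were taken as channel, receptor and pump-interacting genes whose rows lie in 4 regions of GRCm38 where row levels match the exons of the genes that name them. The rows of these regions span positions 3103759-40993758 and 45105208-55469159 of chromosome 4, 3107477-23167414 of chromosome 6 and 8914484-36695665 of chromosome 15. The regions were thus chosen from measured levels averaged over both groups, so the levels below are a description. The regions held 1083 rows, of which 348 were tested, all 6 of these genes among them. The control group was wild-type (WT) brain held for 5 hours in aCSF, a salt solution made to resemble the fluid around the brain. The other group was WT brain held for 5 hours in aCSF with L-fucose, a deoxy sugar that cells build into glycoproteins and glycolipids, and each group had 6 libraries of poly-A selected RNA. The sources used here give no strain, age, sex, brain region or sugar concentration. Nothing in them says that the 6 libraries of a group came from separate animals, so p-values measure the spread between these libraries, which may in part be technical.

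Excitability rests on the balance of currents through membrane channels and on the receptors that tune them. Potassium channels of the voltage-gated class let potassium leave when the membrane depolarises, which slows or ends firing, while NMDA receptors carry an inward current in response to glutamate. The cannabinoid receptor of axon terminals lowers transmitter release when the postsynaptic cell sends back lipid messengers, and the sodium pump restores the ion gradients on which all of this depends. Kcnd2 encodes a Kv4 family subunit of the fast, A-type potassium current of dendrites. Kcns2 encodes a subunit that forms no working channel alone and alters the currents of Kv2 channels in which it takes part. Both are described first, since they belong to the same superfamily.

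The part of each messenger that encodes the potassium selectivity filter is printed here so that the relation of the 2 channel genes can be seen in the letters. The stretches are 63 coding bases, 5′ to 3′, from the GENCODE M21 transcripts of GRCm38, and capitals mark the 5 codons for threonine, any residue, glycine, tyrosine and glycine, a pattern found 1 time in each coding sequence.
Kcnd2: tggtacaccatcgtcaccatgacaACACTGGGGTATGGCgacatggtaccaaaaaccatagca
Kcns2: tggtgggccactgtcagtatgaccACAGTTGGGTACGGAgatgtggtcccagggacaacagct
The stretches were identical at 42 of 63 bases and, within the filter, at 11 of 15 bases and 2 of 5 codons. In Kcns2 the whole stretch lies in exon 2 of 2, on the plus strand of chromosome 15 from 34839588 to 34839650. In Kcnd2, also on the plus strand, its first 32 bases end exon 1 of 6 at position 21217413 of chromosome 6, and the rest opens exon 2 at position 21714135.

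Depth ran from 9191687 to 18563078 counted reads per library, with a median of 11168285. Values are normalized reads, that is, reads counted for a row after division by a size factor that makes libraries comparable. In the wider table many rows do not carry the level their name implies, and the rows named Snap25 and Eef1a1, for example, averaged 0.616 and 0.197 normalized reads. The regions were chosen because levels and exons match there, so the place of the best match, given next, describes that choice and is no independent check of the row names. In the 80 rows around each gene, mean levels matched protein-coding exons best at no displacement for Grin3a, Kcnd2 and Gpr85. The best match lay 100 bases off for Cnr1 and Nkain3 and 450 bases off for Kcns2, on a grid of 50 bases. A row displaced by that much would still cover 93.8%, 90.8% and 86.2% of the exonic bases of Cnr1, Nkain3 and Kcns2. The match was least distinct for Nkain3, with a correlation of 0.79 at no displacement and up to 0.75 at places over 1 kb away. For the other genes it was 0.65 to 0.77 at no displacement and at most 0.49 to 0.63 over 1 kb away. None of the 6 shares exonic bases with another annotated gene. aCSF 5 and aCSF 6 stood apart from the rest, with the highest mitochondrial shares (41.9% and 44.8% of counted reads, against 27.6% to 40.5% elsewhere) and the fewest rows above 0. Results that rest on them are given with and without them.

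Per kb of exon, the scale on which genes can be compared, Kcnd2 was the highest at 425 ± 56.3 normalized reads per kb (SD over 12 libraries). Cnr1, the CB1 cannabinoid receptor, followed at 320.4 ± 27.4, Gpr85 at 232 ± 25.8, Kcns2 at 134 ± 22.5, Grin3a at 98.0 ± 16.7 and Nkain3 at 5.47 ± 2.21. Kcnd2 and Cnr1 overlapped across libraries, as did Kcns2 and Grin3a, although in each of these pairs the first was above the second in 11 of 12 libraries. Every other step in the order was clear of overlap. Among the 348 tested rows of the regions, Kcnd2 stood 61st by level per kb and Nkain3 335th. By distance, Kcnd2 was the gene nearest to the end of a region, 1.47 Mb inside it with a mean of 2192 normalized reads. The nearest listed channel or receptor row beyond that end, Grm8, lay 4.08 Mb outside with a mean of 282 normalized reads, a level that need not be that of Grm8.

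**Figure D1:**
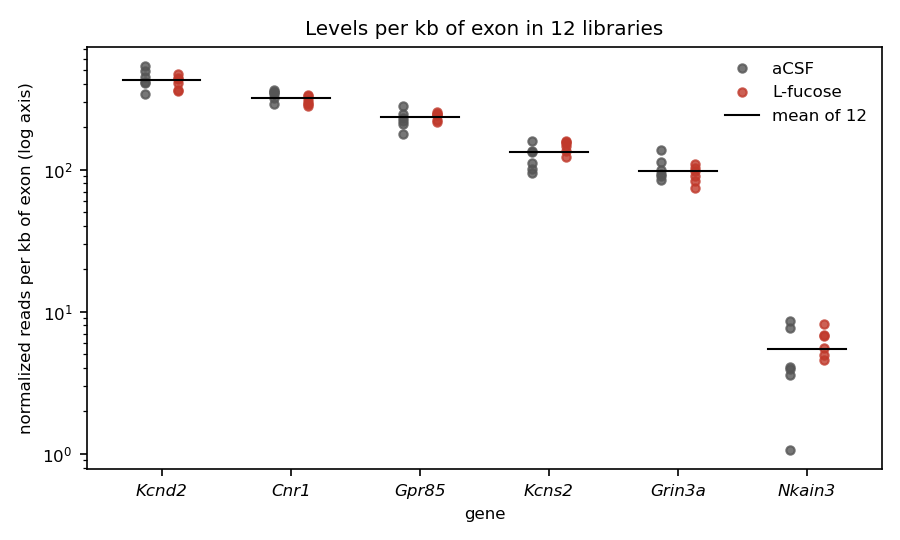
Normalized reads per kb of exon (log axis) for the 6 genes in the 6 aCSF and 6 L-fucose libraries, each point a library and each line the mean of 12. Kcnd2 is at the top with a mean of 425 and Nkain3 at the bottom with 5.47.

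Kcns2 had the smallest unadjusted p of the 6. In aCSF its lowest, median and highest values were 526, 680.4 and 885 normalized reads, and in L-fucose 682, 840.1 and 881. All 6 L-fucose libraries were above the aCSF median, a placement seen in 6.22% of the 10787 tested rows. All 6 also lay inside the aCSF range, because aCSF 5 was the highest of the 12. Without aCSF 5 the highest aCSF value was 750, in aCSF 2, and L-fucose 4, at 682, was the only L-fucose library below it. L-fucose libraries averaged 812 ± 77.9 and aCSF libraries 681 ± 135 (SD, n = 6 each). The log2 fold change, L-fucose minus aCSF, was 0.27 (standard error 0.13) and had a 95% interval from 0.01 to 0.54, or a change of 0.396% to 44.9%. With limma the unadjusted p was 0.0457 and the p adjusted over all tested rows by the Benjamini-Hochberg method 0.834, so the difference did not pass. On the recovered reads the unadjusted p was 0.0587 in edgeR and 0.0579 in DESeq2, with a log2 fold change of 0.25 in both. Without aCSF 5 and 6 it was 0.34 (unadjusted p 0.0135, adjusted p 0.347 in limma). Without aCSF 1, the lowest library, it was 0.20 (unadjusted p 0.129, adjusted p 0.797 in limma), and over the 12 libraries left out in turn the unadjusted p was under 0.05 in 5. Kcns2 (ENSMUSG00000050963) lies on chromosome 15 from 34837355 to 34843407.

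Kcnd2 had aCSF values of 1760 at the lowest, 2208 at the median and 2747 at the highest, and L-fucose values of 1839, 2175 and 2409.6. The L-fucose libraries all lay inside the aCSF range, 3 above and 3 below its median. The 2 highest of the 12 values were those of aCSF 5 and aCSF 6, which averaged 2641 against 2069 in the other aCSF libraries. The log2 fold change was -0.08 (standard error 0.11, interval -0.31 to 0.14, limma adjusted p 0.937). Its sign followed the 2 libraries, since it was -0.02 without aCSF 5 alone and 0.04 without both (interval -0.18 to 0.25). Kcnd2 (ENSMUSG00000060882) lies on chromosome 6 from 21215503 to 21729805.

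Grin3a encodes an NMDA receptor subunit that binds glycine and, when it takes the place of the common subunits, gives receptors that pass less calcium. It had 1043, 1185 and 1689 normalized reads at the lowest, median and highest in aCSF and 913, 1152 and 1351 in L-fucose. L-fucose 5 and 6 were the lowest libraries and aCSF 2 and 3 the highest, with the rest interleaved. The log2 fold change was -0.14 (standard error 0.12, interval -0.40 to 0.11, limma adjusted p 0.888). Without aCSF 2, the library at 1689, it was -0.06, and without aCSF 5 and 6 it was -0.20 (interval -0.47 to 0.08). Grin3a (ENSMUSG00000039579) lies on the minus strand of chromosome 4 from 49661611 to 49845744.

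Cnr1 was the steadiest of the 6 across libraries. Its aCSF values were 1864, 2225 and 2318 normalized reads at the lowest, median and highest, and its L-fucose values 1817, 1944 and 2164. Every L-fucose value lay under the median of aCSF, as in 7.92% of tested rows, and 4 of the 6 were inside the aCSF range. That placement rested on aCSF 5 and 6, at 2256 and 2259. Without them L-fucose 1, at 2164, was above the aCSF median. L-fucose libraries averaged 1973 ± 139 and aCSF libraries 2156 ± 170.3 (SD, n = 6 each). The log2 fold change was -0.13 (standard error 0.09, interval -0.31 to 0.05, limma adjusted p 0.872), and -0.09 without aCSF 5 and 6. In these bulk libraries fewer cells of a type and less RNA per cell cannot be told apart, which holds for each gene here. Cnr1 (ENSMUSG00000044288) lies on chromosome 4 from 33924593 to 33948831.

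Gpr85 encodes an orphan receptor of the brain with a sequence that has hardly changed among vertebrates. It had 731, 918 and 1143 normalized reads at the lowest, median and highest in aCSF and 875, 991 and 1035 in L-fucose. The L-fucose libraries lay inside the aCSF range, whose ends were aCSF 1 and aCSF 4. The log2 fold change was 0.07 (standard error 0.11, interval -0.16 to 0.29, limma adjusted p 0.945). It was 0.0028 without aCSF 1, 0.13 without aCSF 4 and 0.05 without aCSF 5 and 6. Gpr85 (ENSMUSG00000048216) lies on the minus strand of chromosome 6 from 13834458 to 13839942.

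Nkain3 encodes a membrane protein named for its interaction with the sodium pump, and it was the gene with the fewest reads. Between 8 and 77 reads were counted for it per library, against at least 459 for each of the other 5 genes. In aCSF the lowest, median and highest values were 7.39, 27.7 and 59.6 normalized reads, and in L-fucose 31.8, 42.6 and 56.8. Every L-fucose library was above the aCSF median, as for Kcns2, and inside the aCSF range. That placement rested on aCSF 5 and 6, at 24.7 and 28.1. Without them L-fucose 3, 4 and 6, at 38.5, 31.8 and 34.5, were below the aCSF median. The log2 fold change was 0.57 (standard error 0.42, interval -0.30 to 1.43, limma adjusted p 0.872). Without aCSF 2, which had the 8 reads, it was 0.21, and it was 0.53 without aCSF 5 and 6. edgeR with TMM factors, run on the recovered reads, gave 0.36. Nkain3 (ENSMUSG00000055761) lies on the minus strand of chromosome 4 from 20118874 to 20778866.

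**Figure D2:**
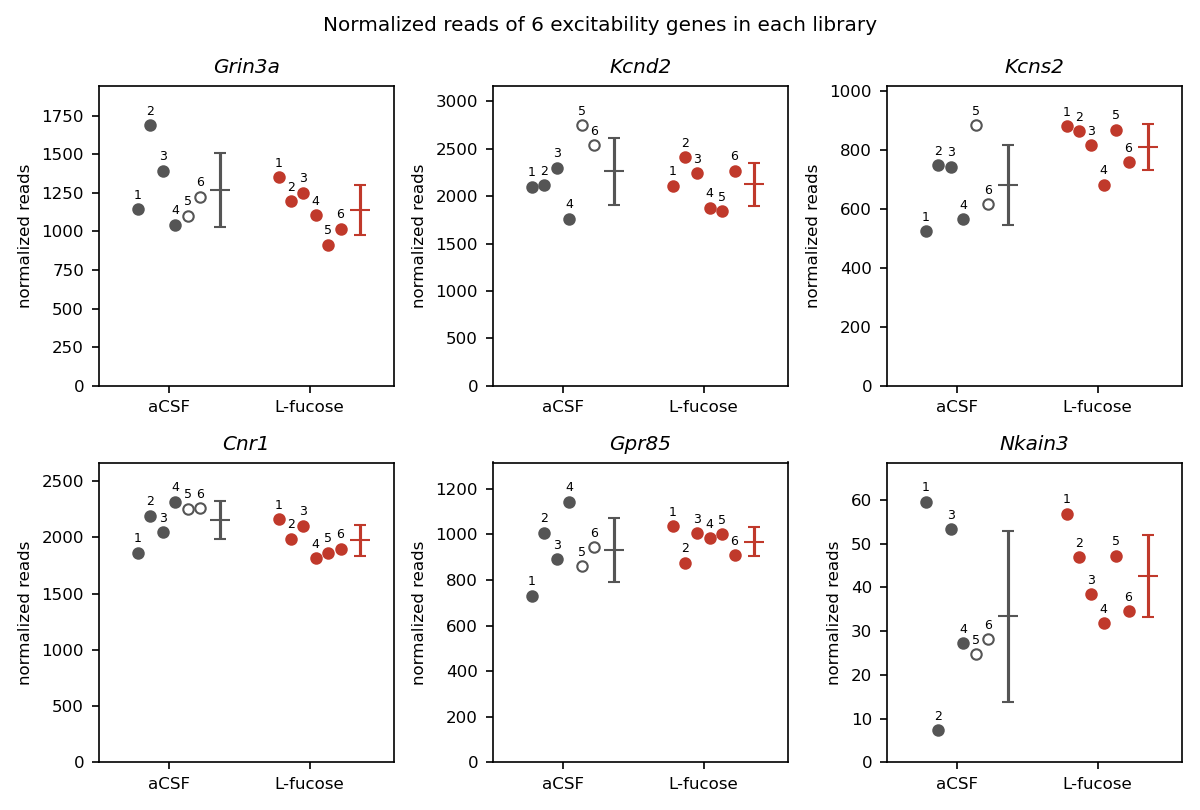
Normalized reads of each gene (vertical axes start at 0) by group, with library numbers beside the points, aCSF 5 and 6 as open points, and the mean ± SD of 6 libraries at the side. The groups overlap in all 6 panels, and all L-fucose libraries of Kcns2 (682 to 881) lie below aCSF 5 at 885.

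With limma, 0 of the 6 genes passed the threshold of 0.05 on the adjusted p, and the background was 0 of 10787 tested rows, or 0%. At an unadjusted p under 0.05 there was 1, Kcns2, against 3.17% of tested rows higher and 2.79% lower. None of the 6 passed in edgeR or DESeq2 either, which called 0 rows and 1 row in the whole table. Of the 6, 3 had positive and 3 negative fold changes, with a median of -0.01, beside a median of 0.01 over all tested rows and -0.05 over the 348 in the regions. The groups overlapped in each of the 6, while 0.287% of tested rows had groups without overlap. For all but Nkain3 the interval from the 12 libraries excluded a 1.5-fold change in either direction. For Kcns2 this did not hold without aCSF 5 and 6 (upper limit 1.52-fold), nor without aCSF 3 (1.501-fold), aCSF 5 (1.52-fold) or L-fucose 4 (1.51-fold) alone. The limits nearest to that size were those of Kcns2 (1.45-fold up) and Grin3a (to 0.756 of the aCSF level). The Nkain3 interval reached 2.70-fold and so did not exclude a doubling.

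The wider families of channels and receptors were listed by family and not by how their rows moved. They had 368 rows in the table, of which 158 were tested, and with limma 0 passed in either direction, 12 at an unadjusted p under 0.05 (5.96% of all tested rows did). Their median log2 fold change was 0.02. Most of these rows lie outside the 4 regions, where a row's level need not be that of the gene it is named for, so their fold changes are given as counts and medians. The Kv4 complex list had 6 tested rows with a median of -0.06 and the other voltage-gated potassium channels 17 with a median of 0.05. The ionotropic glutamate receptors had 12 tested rows (median -0.06), the endocannabinoid list 8 (0.03) and the sodium pump list 10 (0.11). Each of these lists had 1 row in the regions, and it was the gene described above.

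Beside the 6 genes, 7 listed genes lay in the regions, and 5 of them were tested. Gabrr2, a rho subunit of GABA receptors, was at -1.51 (interval -2.12 to -0.90, limma adjusted p 0.498) and was the 1 row that passed in DESeq2 (adjusted p 0.00311). Gabbr2, which encodes a GABA-B receptor subunit, was at 0.02 (-0.18 to 0.21) with 10734 normalized reads on average. Npr3, a clearance receptor for natriuretic peptides, was at -0.21 (-0.58 to 0.17), the calcitonin receptor gene Calcr at -0.18 (-1.56 to 1.20) and the chloride channel gene Cftr at -0.83 (-2.51 to 0.85). Calcr ran from 7.07 to 144 normalized reads among the 12 libraries, a wider range than that of Nkain3. Cngb3 and Gabrr1 were too low to be tested, with averages of 2.43 and 4.73 normalized reads.

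**Figure D3:**
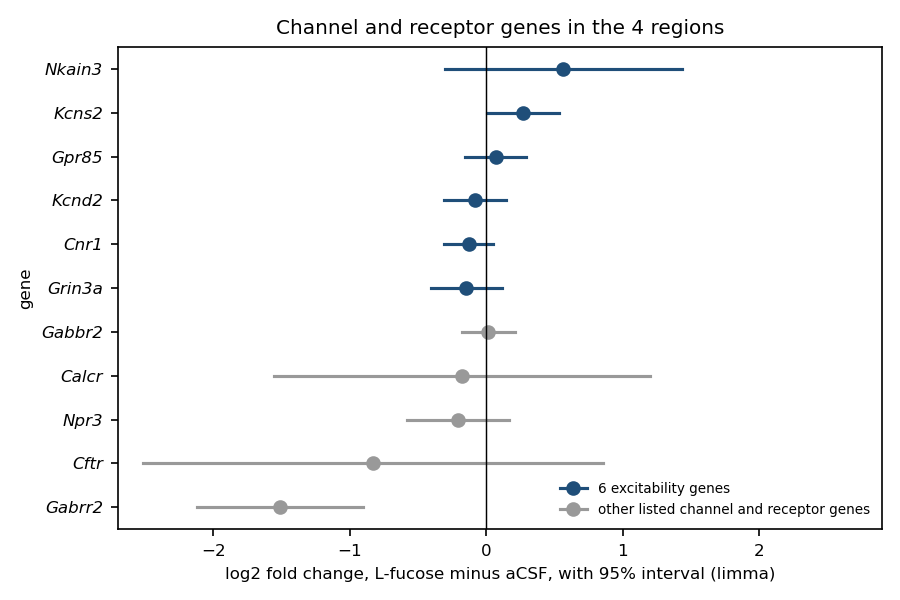
Log2 fold change, L-fucose minus aCSF, with 95% limma intervals, for the 6 genes (blue) and the 5 other listed genes tested in the regions (grey). The Kcns2 interval lies just above 0 (0.01 to 0.54), and those of the other 5 blue genes include 0.

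The aCSF libraries were more spread than the L-fucose libraries for all 6 genes. The coefficient of variation (SD over mean) was 19.9% against 9.60% for Kcns2, 15.05% against 6.45% for Gpr85 and 58.4% against 22.02% for Nkain3. It was 18.9% against 14.0% for Grin3a, 15.5% against 10.7% for Kcnd2 and 7.90% against 7.03% for Cnr1. Over all tested rows the aCSF value was the larger in 64.8%, and this share fell to 44.0% when aCSF 5 and 6 were left out. Among the tested rows of the regions the shares were 63.2% and 47.7%. All 6 genes were still more spread in aCSF 1 to 4 than in the 6 L-fucose libraries, though they share the same libraries. The smallest of these differences was that of Kcnd2, 10.9% against 10.7%, and no test was made. Read counting alone would give between 2.08% and 3.95% for the 5 genes with more reads, which is below the spread measured in every case. For Nkain3 it would give 18.0% in aCSF and 14.7% in L-fucose.

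Some libraries were the highest or lowest of their group for several of these genes, though not always on the same side. L-fucose 1 was the highest of the 6 L-fucose libraries for Grin3a, Kcns2, Cnr1, Gpr85 and Nkain3, and it held that place in 21.6% of the tested rows of the regions. aCSF 1 was the lowest aCSF library for Kcns2, Cnr1 and Gpr85 (14.4% of those rows) and the highest for Nkain3. aCSF 4 was the lowest for Grin3a and Kcnd2 (33% of those rows) and the highest for Cnr1 and Gpr85 (9.77%). L-fucose 4 was the lowest L-fucose library for Kcns2, Cnr1 and Nkain3 (29% of those rows). The genes therefore did not rank the libraries alike.

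**Figure D4:**
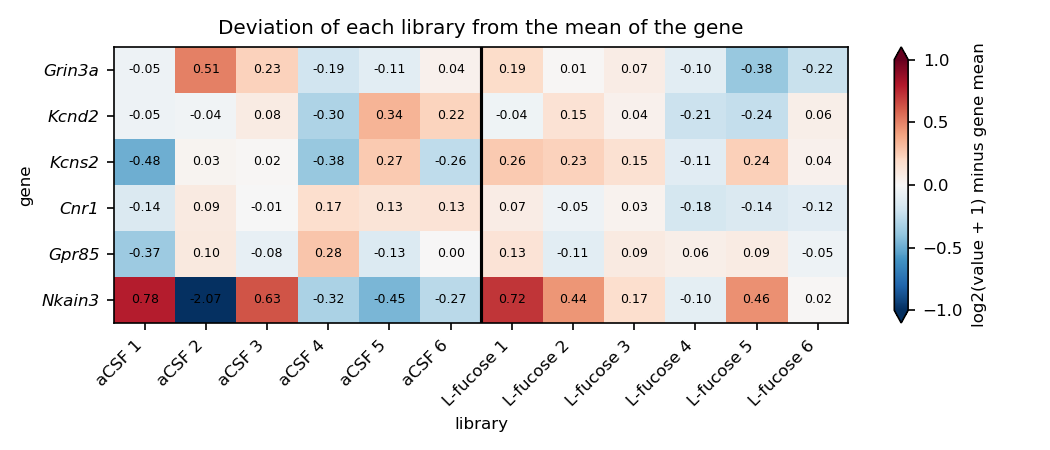
Deviation of log2(value + 1) in each library from the mean of the gene over 12 libraries, by gene and library, with the line between groups. Kcns2 is at -0.48 in aCSF 1 and 0.26 in L-fucose 1, and Nkain3 at -2.07 in aCSF 2, beyond the colour scale.

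Across the 12 libraries, the 15 pairs of these genes had Pearson correlations of log2(value + 1) between -0.51 and 0.42. The lowest adjusted p by permutation test was 0.594 for r and 0.530 for Spearman's rho, so no pair passed. The strongest over all 12 was Kcnd2 with Gpr85, with r = -0.51 (permutation p = 0.0894) and rho = -0.56 (permutation p = 0.0643). Within groups r was -0.46 in aCSF and -0.61 in L-fucose, and it was -0.52 without aCSF 5 and 6. Without the 2 libraries farthest from the Kcnd2 median it fell to -0.23, so the relation rests in part on those. Within the 6 libraries of a group other pairs had larger values, given as a description, among them Kcns2 with Nkain3 (0.92 in L-fucose, -0.40 in aCSF), Grin3a with Cnr1 (0.83 in L-fucose, -0.10 in aCSF) and Cnr1 with Gpr85 (0.32 in L-fucose, 0.81 in aCSF). The sign differed between groups in 5 of the 15 pairs, and these differences were not tested. All of these pairs but Grin3a with Cnr1 involve Nkain3, which had 8 reads in aCSF 2. The 2 potassium channel genes had r = 0.32 (permutation p = 0.312, rho = 0.32 with permutation p = 0.305), 0.39 without aCSF 5 and 6 and -0.11 without the 2 libraries farthest from the Kcnd2 median.

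The genes most like each of the 6 were taken from 287 other tested rows of the regions by the highest r over 12 libraries, as a description. Kcnd2 was nearest to Retreg1, a receptor for autophagy of the endoplasmic reticulum (r = 0.86, 0.77 without aCSF 5 and 6), Ndufaf4, an assembly factor of respiratory complex I (0.82, 0.61), and Sema5a, a semaphorin (0.80, 0.61). Grin3a was nearest to the prolactin receptor gene Prlr (0.83 in both), Cttnbp2 (0.74, 0.77) and Invs (0.74, 0.87). Cnr1 was nearest to Srsf12 (0.85, 0.84), Capza2 (0.80, 0.86) and Smu1 (0.79, 0.84). For Kcns2, r was 0.67 with Ubxn2b (0.60), 0.63 with Tox (0.54) and 0.59 with AI427809 (0.45), while Spearman's rho was 0.83, 0.62 and 0.83. Gpr85 had Alg2 at 0.61 (0.66), Runx1t1 at 0.54 (0.57) and Fbxl4 at 0.48 (0.68), and Nkain3 had March11 at 0.74 (0.80), AI427809 at 0.59 (0.86) and Smim27 at 0.55 (0.74). Spearman's rho was 0.81, 0.73 and 0.71 for the rows named with Kcnd2, 0.80, 0.72 and 0.76 for Grin3a, 0.83, 0.87 and 0.88 for Cnr1 and 0.67, 0.67 and 0.48 for Gpr85. For Nkain3 it was 0.41, 0.35 and 0.37, and the lowest point of that gene was the aCSF 2 library.

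Markers of the cell types in a brain section could be read for few genes. Of 8 neuronal markers, 4 beside Cnr1 lay in the regions, and their summed level was 37980 to 43824 normalized reads in aCSF and 38900 to 42148 in L-fucose. Basp1, Gabbr2, Calb1 and Necab1 were at 0.03, 0.02, -0.05 and -0.09. When every library was scaled to these markers, Kcns2 was at 0.29, Cnr1 at -0.10 and Kcnd2 at -0.06. Of 7 astrocyte and glial progenitor markers, Ptprz1 (-0.30, interval -0.49 to -0.11) and Fut9 (-0.23) lay in the regions, with summed levels of 7133 to 10287 in aCSF and 6215 to 7779 in L-fucose. Of 5 ependymal and choroid plexus markers, Spef2 (-1.30), Cfap206 (-0.76) and Prlr (-0.57) did, with summed levels of 381 to 886 in aCSF and 265 to 483 in L-fucose, and Prlr was also the gene most like Grin3a. Of 5 vascular and fibroblast markers Col1a2 (0.24) did, and 0 of the 4 oligodendrocyte and 0 of the 4 microglial markers. None of these rows passed with limma (adjusted p 0.775 or more), and their part in the values of the 6 genes was not tested.

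**Figure D5:**
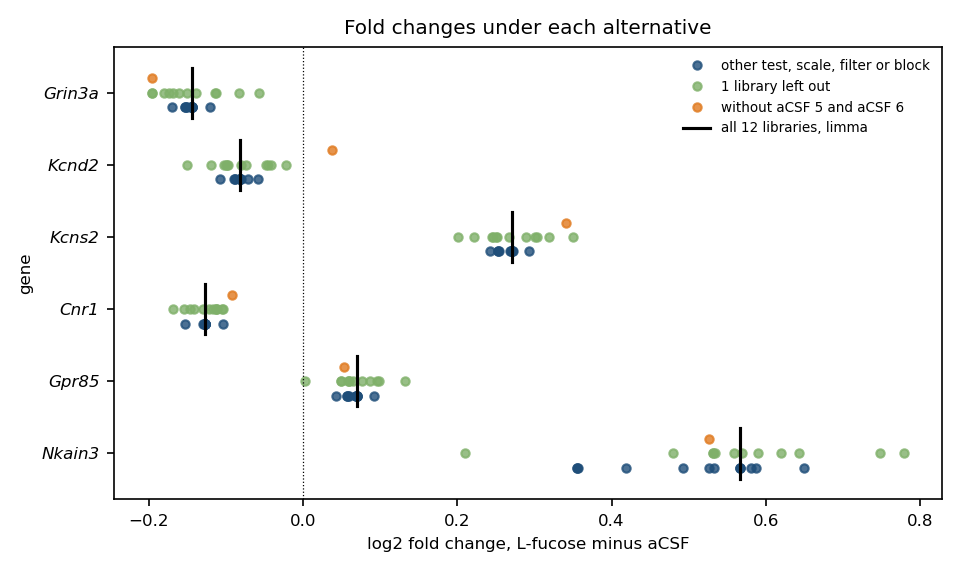
Log2 fold change of each gene in the limma fit of all 12 libraries (black line), under other tests, scalings, filters and blocks (blue), with each library left out in turn (green) and without aCSF 5 and 6 (orange). Kcnd2 alone crosses 0, ranging from -0.15 to 0.04, and Nkain3 ranges from 0.21 to 0.78.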

How the data were processed

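The authors deposited 1 table of 12 libraries whose values are a normalized signal (reads scaled by a size factor). In each library 100% of values were whole multiples of what 1 read is worth, within 0.01 reads, which gave the read numbers back. Per the submitters' processing notes the build was mm10, and the tools were featureCounts 2.0.3, HISAT2 2.2.1, Trimmomatic 0.39 and DESeq2 2.11.40.8. The sources used here give no annotation release or strand setting. Identifiers were matched to GENCODE M21 (GRCm38), with 52073 of 56923 matched. The 10787 rows that reached 10 in 6 or more libraries were tested with limma 3.58.1 on log2(value + 1), the group as sole term and a variance trend, two-sided, with Benjamini-Hochberg adjustment over all tested rows. The added 1 reduces changes of low rows on this scale, and Nkain3 was at 0.58 with 0.5 added and at 0.49 with 4 added. Its value on this scale, 0.57, was nevertheless larger than that in edgeR with TMM factors or in DESeq2, 0.36 in both. edgeR 4.0.16 and DESeq2 1.42.0 were run on the recovered reads as alternatives. Row positions were checked by correlating levels with protein-coding exons at displacements of up to 600 kb. The pair correlations used 100000 permutations. The fit was tested on simulated data, with R 4.3.3 and Python 3.11.15. The genes, lists and most alternatives were chosen with earlier results of these data known. The genes named are the 6, every tested gene of the family lists and markers in the regions, and the 3 rows most like each of the 6, without predicted gene models. Cngb3, Gabrr1, Grm8, Snap25, Eef1a1 and F830045P16Rik fall outside this rule and were chosen after their values were seen.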

Additional observations from a re-analysis of the deposited data

Results flagged for a closer look

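Of 72 groups of 6 values examined (the 6 genes and the other genes named), 5 had 1 value well separated from the remaining ones, which happens by chance in about 5% of such groups. None was a group of the 6 excitability genes, which made up 12 of the 72. For Tox, L-fucose 4 had 508 normalized reads while the rest of its group had 687 to 783. AI427809 was 52.7 in aCSF 5 against 0 to 13.8. Runx1t1 was 293 in L-fucose 2 against 358 to 394, and Smim27 was 59.6 in the same library against 18.9 to 29.5. For Ptprz1, L-fucose 6 was at 5845 and the rest of the group at 4603 to 5025. Tox, AI427809, Runx1t1 and Smim27 entered as genes most like Kcns2, Gpr85 or Nkain3, and the values of likeness include these libraries.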

How the results depend on the processing

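Over 26 alternatives, 155 of the 156 fold changes of the 6 genes kept their sign and none passed the adjusted threshold. The exception was Kcnd2 at 0.0372 without aCSF 5 and aCSF 6. Leaving out the filter, making it stricter or adding the replicate block in limma cannot move a fold change. All alternatives also draw on the same libraries, so the number of kept signs is no independent support. The number of rows past the threshold was 0 in 24 alternatives and 1 in DESeq2 (Gabrr2) and 1 in DESeq2 with the replicate block, where the row, outside the regions, is named F830045P16Rik. The cause was not tested. With limma 643 of 10787 tested rows had an unadjusted p under 0.05, and with edgeR and TMM factors 604 of 10771. With DESeq2, run without the filter on level, it was 1054 of 29080. With limma without aCSF 5 and 6 it was 1177 of 10425, a larger share than with all 12 libraries. With each library left out in turn, 0 rows passed the adjusted threshold throughout. In those fits fold changes ran from -0.20 to -0.06 for Grin3a, -0.15 to -0.02 for Kcnd2 and 0.20 to 0.35 for Kcns2. They ran from -0.17 to -0.10 for Cnr1, 0.0028 to 0.13 for Gpr85 and 0.21 to 0.78 for Nkain3. The titles share replicate numbers between groups, but same-numbered libraries did not deviate together (r from -0.17 to 0.17, 1 of 6 correlating best with its own number). They were not taken as pairs in the main fit. This check used all tested rows and cannot show whether same-numbered libraries came from the same animal. With the replicate block in limma Kcns2 was at 0.27 (unadjusted p 0.0405, adjusted p 0.901, 0 rows passing). With the block its unadjusted p was 0.0405 in edgeR with TMM factors and 0.0422 in DESeq2 (adjusted p 0.992 and 0.999). The unadjusted p of Kcns2 was under 0.05 in 15 of the 26 alternatives, which draw on the same libraries. Over the alternatives the adjusted p of Kcns2 ran from 0.347 to 0.999. Nkain3, with 8 reads in 1 library, was the gene most limited by depth. The scaling to neuronal markers was added after the data were seen.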
